A study of Mus musculus with 25 samples.

Results

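The genes described here are 36 mouse genes that encode complement and coagulation factors of the plasma, together with their inhibitors. They were chosen by symbol, by no rule on measured values, out of 24107 genes with finite values in a table of liver RNA. Earlier results of these data were known at the time. All 36 were among the 9372 genes tested, which had at least 1 RPKM (reads scaled to gene model length and to the reads of the library) in at least 5 of 25 libraries. Livers came from C57BL/6 mice that had spent 5 weeks in parabiosis, the surgical joining of 2 animals so that blood passes between them. Each of 5 groups held 5 mice. O (Yg Het) were WT mice of 21 months joined to a young mouse heterozygous for Manf, the gene of a secreted protein of the endoplasmic reticulum stress response. O (YgWT) were WT mice of 21 months joined to a young WT mouse, and O-O were WT mice of 21 months joined to another old mouse. Yg Het were the ManfHet partners and Yg WT the WT partners, both aged 5 months. The comparisons ask what a young partner, its Manf genotype and age did to the liver. The labels do not say which old and young mouse formed a pair, nor whether O-O livers came from separate pairs. Young mice joined to each other were not analysed here. O-O and Yg WT mice both had an old partner, but only that of O-O was of the mouse's own age. When O (YgWT) is compared with Yg WT, or O (Yg Het) with Yg Het, age and the partner's age cannot be told apart.

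Hepatocytes make most plasma complement and clotting proteins and secrete them as inactive precursors. In complement, pattern recognition by mannose-binding lectins or C1q starts protease steps that build convertases around C3, and these lead to assembly of the membrane attack complex from C5, C6, C7, C8 and C9. In coagulation, the contact and tissue factor routes meet at factor X. Thrombin then cuts fibrinogen to fibrin, antithrombin and protein C hold thrombin back, and plasmin dissolves the clot.

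All 12 hepatocyte markers were above 0 in every group. The libraries held 21.8 to 27.6 M reads (mean 24.9 M ± 1.42 SD, n = 25) by a recovery of whole reads from the RPKM values, of which 62.2% to 68.1% lay on genes with values. Manf itself read 5.23, 5.94, 3.61, 4.33 and 3.25 RPKM in Yg Het livers, against 9.78, 19.4, 24.6, 10.5 and 12 RPKM in Yg WT livers, with no overlap. In the old WT livers Manf read 4.95 to 9.52 RPKM in O (Yg Het), against 13.7 to 20.3 RPKM in O (YgWT) and 5.90 to 12.1 RPKM in O-O livers. The median log2 difference of all tested genes was -0.14 for O (Yg Het) against O (YgWT) and against O-O, and -0.13 against Yg Het, so these comparisons are given as deposited and after median-of-ratios scaling, which brought those medians to 0.00, 0.01 and -0.01. O (Yg Het) libraries also held less RNA of other cell types. The summed level of 12 Kupffer cell markers was 71.9 to 213 RPKM in O (Yg Het), against 232 to 429 RPKM in O (YgWT) and 243 to 672 RPKM in O-O livers. The albumin share of gene reads was 8.69% to 18.1% in O (Yg Het), 4.12% to 11.7% in O (YgWT) and 6.71% to 11.2% in O-O livers. Fewer cells of a type and less RNA per cell cannot be told apart in such bulk samples.

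The promoters of the 3 fibrinogen chain genes and of C8a and C8b are shown, a choice made from the measured values. The ratios of the fibrinogen genes to each other moved less than their levels. C8a and C8b, neighbours on chromosome 4, were both lower in O (Yg Het) than in O (YgWT) livers as deposited. Neither passed after scaling or against O-O livers. Each stretch is read 5′ to 3′ from up to 250 bases before the gene's start (RefSeq sequence, GRCm38.p6), and that of Fga stops at the start of the GENCODE gene, 173 bases in all. Capitals mark matches, on either strand, to an HNF1 half-site (GTTAAT), a STAT motif (TTCNNNGAA), a C/EBP motif (TTGCNNAA) or an interleukin-6 response element (CTGGGAA). No matches overlapped.
Fga chr3:83025903-83026075 plus strand: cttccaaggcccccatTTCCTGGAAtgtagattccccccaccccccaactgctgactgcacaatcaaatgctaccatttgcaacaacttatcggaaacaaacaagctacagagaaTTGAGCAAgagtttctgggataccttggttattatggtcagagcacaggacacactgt
Fgb chr3:83049864-83050113 minus strand: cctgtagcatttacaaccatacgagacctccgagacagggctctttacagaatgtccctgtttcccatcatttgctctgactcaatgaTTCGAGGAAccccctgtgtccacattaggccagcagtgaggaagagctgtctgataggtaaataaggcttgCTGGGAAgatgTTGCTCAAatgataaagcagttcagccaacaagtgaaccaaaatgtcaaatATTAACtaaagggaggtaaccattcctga
Fgg chr3:83007474-83007723 plus strand: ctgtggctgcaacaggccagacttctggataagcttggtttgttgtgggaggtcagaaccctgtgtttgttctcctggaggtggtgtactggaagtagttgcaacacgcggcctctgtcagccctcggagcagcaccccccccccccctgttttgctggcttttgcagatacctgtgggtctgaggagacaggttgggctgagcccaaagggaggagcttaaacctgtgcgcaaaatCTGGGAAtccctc
C8a chr4:104876399-104876648 minus strand: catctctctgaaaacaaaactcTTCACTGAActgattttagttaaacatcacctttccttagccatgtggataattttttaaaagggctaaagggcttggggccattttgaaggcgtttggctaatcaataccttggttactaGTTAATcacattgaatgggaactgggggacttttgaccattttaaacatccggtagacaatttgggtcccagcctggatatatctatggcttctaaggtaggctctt
C8b chr4:104766067-104766316 plus strand: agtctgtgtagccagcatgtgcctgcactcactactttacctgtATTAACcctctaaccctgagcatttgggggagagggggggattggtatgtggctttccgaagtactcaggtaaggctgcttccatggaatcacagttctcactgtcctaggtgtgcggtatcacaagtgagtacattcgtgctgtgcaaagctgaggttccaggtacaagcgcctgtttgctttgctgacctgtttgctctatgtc

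Of the 36 genes, 27 matched a RefSeq promoter. The counts below are of genes with a match in any of their promoters, while the percentages are of all promoters, so their units differ. GTTAAT occurred in 7 of these 27, against 6.43% of all 32851 promoters, and those of Fga, Fgb, C8a and C8b were among the 7 (that of Fga lies in the part not shown). TTCNNNGAA occurred in 6 (7.02% of all), TTGCNNAA in 7 (9.56% of all) and CTGGGAA in 4 (9.1% of all). Fga, Fgb and C8a carried the STAT motif. Fga and Fgb carried the C/EBP motif, and Fgb and Fgg the interleukin-6 response element, so no motif of the 4 was shared by all 3 fibrinogen promoters in these windows. A match describes letters and not binding.

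These genes were among the most abundant of the liver. Over all 25 livers 23 of 36 averaged at least 100 RPKM, 24 ranked among the first 500 tested genes and 6 among the first 100. The 6 were the fibrinogen chains Fgg (1303 RPKM), Fga (1263 RPKM) and Fgb (1027 RPKM), C3 (1201 RPKM), the plasmin precursor Plg (689 RPKM) and the kininogen gene Kng1 (601 RPKM). At the other end stood C2 (3.40 RPKM) and Cfb (1.08 RPKM), which encode the catalytic chains of the C3 convertases. Both values are uncertain, because 42.8% of the exon bases of C2 and 79.5% of those of Cfb also belong to the read-through gene Gm20547 on the same strand, and Cfb rested on 42 to 115 reads per library. The level of Klkb1, the prekallikrein gene, is uncertain likewise (43.2% shared with Gm45753), as is that of C4b, which has a near-identical copy, C4a. On the opposite strand Masp2 shares 54.9% of its exon bases with Tardbp, Serpinc1 34.4% with Zbtb37 and Plg 11.3% with Slc22a3, and reads of such pairs cannot be told apart unless strand was used in counting. These shares are of GENCODE exons. Their total length equals the gene model length behind the RPKM for each of these genes but Plg (3711 against 2755 bases), so the share of Plg may differ in the model counted. Kng1 has a close paralog, Kng2, with which it may share reads. Together the 36 genes took 3.89% to 6.69% of gene reads.

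The spread within groups differed between genes. The median within-group SD of log2 level was 0.18 over the 36 genes and 0.16 over all tested genes. Serpind1 (0.09), Proc (0.10), F2 (0.10), F12 (0.11), Masp2 (0.11) and F10 (0.12) varied least, and all but Masp2 and F12 make or inhibit thrombin. C6 (0.42), C9 (0.35), C4b (0.34), F11 (0.30), Hc (0.30) and the fibrinogen chains (0.29 to 0.30) varied most. In some groups 1 liver was the highest or the lowest for many of these genes. Yg Het replicate 5 was the highest of its group for 24 of the 36 genes but for only 9.73% of all tested genes. Yg WT replicate 1 was the highest for 20 (19.3% of all). O (Yg Het) replicate 5 was the highest for 19 and O (YgWT) replicate 4 the lowest for 21, as they were for 41.3% of all tested genes in either case. The highest values of O (YgWT) were spread over replicates 1 (15 genes, 22.5% of all) and 2 (12 genes, 26.2% of all). In O-O livers replicate 5 was the highest for 11 (17.5% of all) and replicate 4 the lowest for 15 (10.5% of all).

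**Figure D1:**
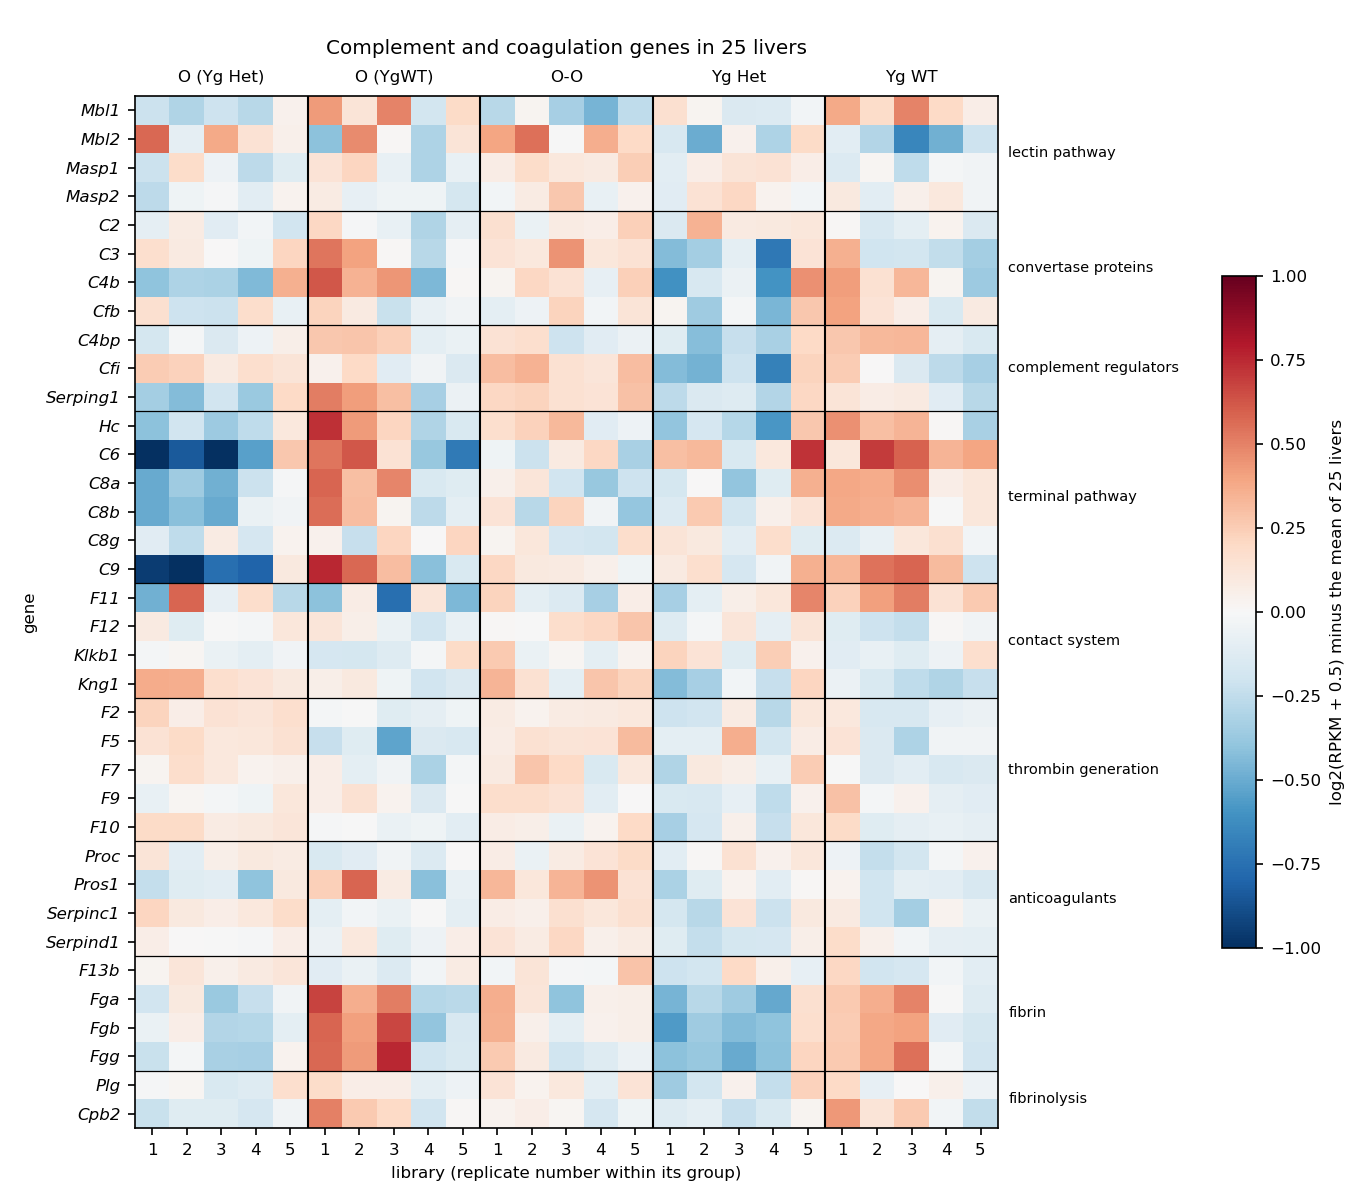
Level of each gene in each of the 25 livers, as log2(RPKM + 0.5) minus the gene's mean over all livers (colour, limited to the range from -1 to 1); columns are libraries by group and replicate, rows are genes by role. C9 is lowest in O (Yg Het) replicates 1 to 4 and C6 in replicates 1 to 3, and the fibrinogen chains are high together in O (YgWT) replicates 1 to 3 and low together in Yg Het replicates 1 to 4.

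Old livers with a Manf-heterozygous partner were compared with old livers with a WT partner. As deposited, 4 genes of the pore-forming end of complement were lower and the clotting factor genes F2 and F5 were higher, and of these C9, F2 and F5 also passed after scaling. In the limma fit with Benjamini-Hochberg adjustment over all tested genes, 2 of the 36 genes rose and 7 fell in O (Yg Het), while 32.7% of all tested genes passed, 3.07% higher and 29.6% lower. The 9 of 36 that passed are no larger a share than that of all genes. The median log2 difference was -0.04 over the 36 genes and -0.14 over all tested genes.

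Of the 6 terminal pathway genes 4 fell. C9 encodes the protein that polymerises into the membrane pore. C9 read 84.6, 78.7, 97.0, 93.8 and 175 RPKM in O (Yg Het) livers, against 277, 245, 203, 123 and 148 RPKM in O (YgWT) livers. Replicates 1 to 4 of O (Yg Het) lay below every O (YgWT) liver and replicate 5 lay within their range. The log2 difference of C9 was -0.91 ± 0.21 (SE, n = 5 each, limma adjusted p = 0.00296), and C9 passed under every omission of 1 library and after scaling (-0.74 ± 0.20, adjusted p = 0.0149). C8a, the chain of C8 that enters the membrane, read 133, 148, 135, 162 and 187 RPKM in O (Yg Het), against 283, 233, 264, 169.9 and 174 RPKM in O (YgWT) livers, a difference of -0.53 ± 0.15 (limma adjusted p = 0.0108). C8b, which binds C8 to the growing complex, averaged 90.2 ± 15.1 RPKM in O (Yg Het) and 121 ± 28.3 RPKM in O (YgWT) livers (SD, n = 5 each), a difference of -0.41 ± 0.15 (limma adjusted p = 0.0358). C6, an early component of the complex, read 19.8, 24.5, 19.9, 30.2 and 53.6 RPKM in O (Yg Het), against 64.6, 68.6, 49.1, 33.9 and 27.0 RPKM in O (YgWT) livers, and differed by -0.72 ± 0.25 (limma adjusted p = 0.0293). For C8a 4 of 5 O (Yg Het) livers, and for C6 and C8b 3 of 5, lay below every O (YgWT) liver.

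The other terminal genes did not pass. Hc, which encodes C5, averaged 127 ± 18.7 RPKM in O (Yg Het) and 173 ± 50.2 RPKM in O (YgWT) livers (limma adjusted p = 0.0843). C8g, whose product is a lipocalin bound to C8, averaged 142 ± 14 RPKM in O (Yg Het) and 156 ± 19.3 RPKM in O (YgWT) livers, and its difference of -0.13 became 0.04 after scaling. As a ratio within each library, which no scaling changes, C9 over C8g averaged 0.736 ± 0.226 in O (Yg Het) and 1.31 ± 0.52 in O (YgWT) livers, and 4 of 5 O (Yg Het) values lay below every O (YgWT) value. C6 and C8b lost their calls when any of O (Yg Het) replicates 1 to 3 or O (YgWT) replicates 1 to 3 was left out, with limma adjusted p from 0.0592 to 0.0925 for C6 and from 0.0513 to 0.122 for C8b. After scaling C8a (-0.36, adjusted p = 0.108), C6 (-0.56, adjusted p = 0.113) and C8b (-0.24, adjusted p = 0.254) no longer passed.

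**Figure D2:**
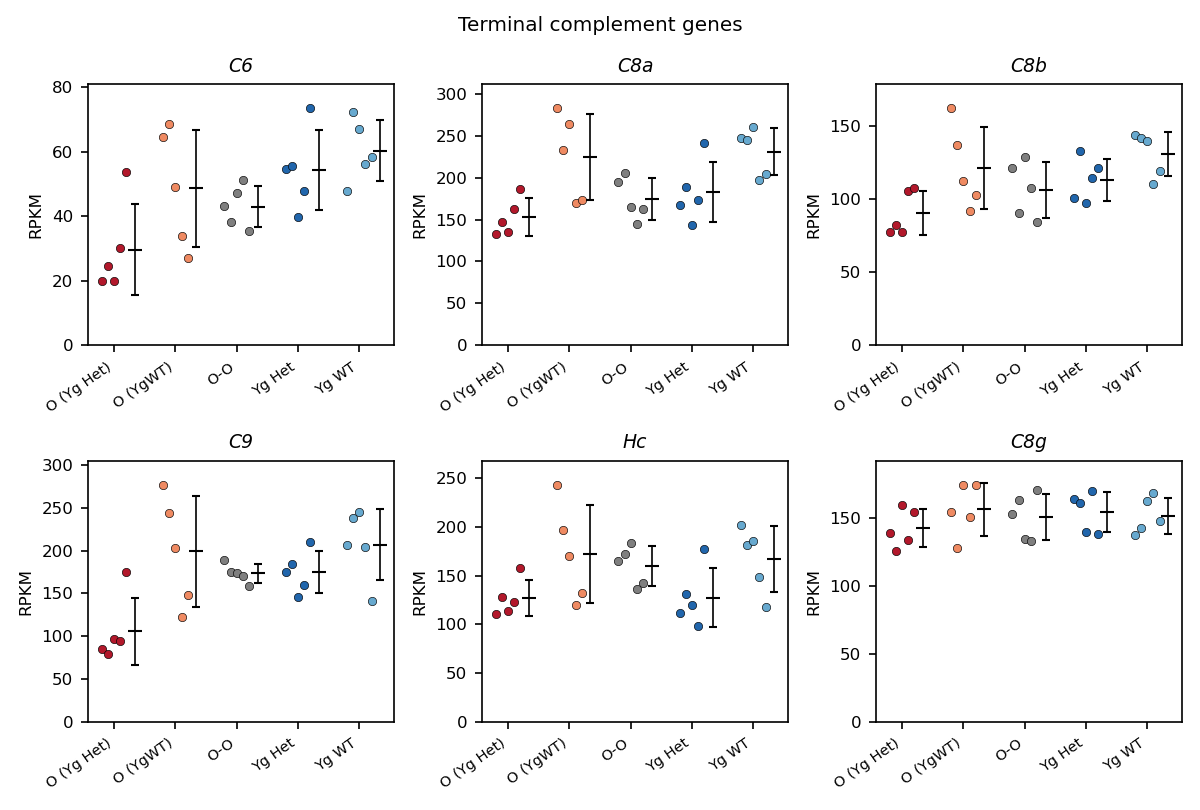
RPKM of the 6 terminal complement genes in each liver by group (points in replicate order), with the group mean and SD beside them (n = 5). C9 is at 78.7 to 97.0 RPKM in 4 O (Yg Het) livers and at 123 RPKM or more in every other liver, while C8g lies between 126 and 174 RPKM throughout.

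Of the lectin pathway, Mbl1, the gene of mannose-binding lectin A, fell. It read 128, 121, 129, 123 and 153 RPKM in O (Yg Het), against 200.4, 163, 210.1, 131 and 170.2 RPKM in O (YgWT) livers, a difference of -0.41 ± 0.11 (limma adjusted p = 0.0108) that passed under every omission of 1 library but not after scaling (-0.24, adjusted p = 0.137). Mbl2, the gene of mannose-binding lectin C, went the other way without passing (0.23 ± 0.16). Serping1, which encodes the C1 inhibitor, fell (-0.40 ± 0.14, limma adjusted p = 0.0332), and so did Cpb2, the gene of the thrombin-activated inhibitor of fibrinolysis (-0.29 ± 0.11, limma adjusted p = 0.0477). For Serping1 and Cpb2 7 of 10 omissions of 1 library ended the call, namely O (Yg Het) replicates 1 to 4 and O (YgWT) replicates 1 to 3 (limma adjusted p from 0.0509 to 0.105 for Serping1 and from 0.0713 to 0.159 for Cpb2). Scaling ended both calls too (Serping1 -0.23, adjusted p = 0.252, and Cpb2 -0.12, adjusted p = 0.493).

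F5, the gene of the cofactor that speeds thrombin formation, rose. It read 72.7, 75.2, 70.7, 71.2 and 73.2 RPKM in O (Yg Het) livers, against 56.0, 60.6, 45.6, 59.4 and 59.0 RPKM in O (YgWT) livers. Every O (Yg Het) liver lay above every O (YgWT) liver, and 1.44% of all tested genes were separated in that way. None of the 36 was lower without overlap, as 13.7% of all tested genes were. The log2 difference of F5 was 0.38 ± 0.10 (limma adjusted p = 0.00583), and it passed under every omission of 1 library. F2, which encodes prothrombin, read 313, 281, 297, 291 and 301 RPKM in O (Yg Het), against 264, 267, 246, 252 and 259.6 RPKM in O (YgWT) livers, again without overlap. F2 differed by 0.20 ± 0.07 (limma adjusted p = 0.0326), a call that ended without O (Yg Het) replicate 1, 3 or 4 or O (YgWT) replicate 3 or 4 (limma adjusted p from 0.0501 to 0.0761). F10, the gene of factor X (121 ± 4.28 RPKM in O (Yg Het) and 107 ± 2.96 RPKM in O (YgWT) livers), and Serpinc1, the antithrombin gene (193 ± 8.62 RPKM in O (Yg Het) and 169 ± 5.13 RPKM in O (YgWT) livers), did not overlap either but did not pass (limma adjusted p = 0.0716 for F10 and 0.0768 for Serpinc1).

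**Figure D3:**
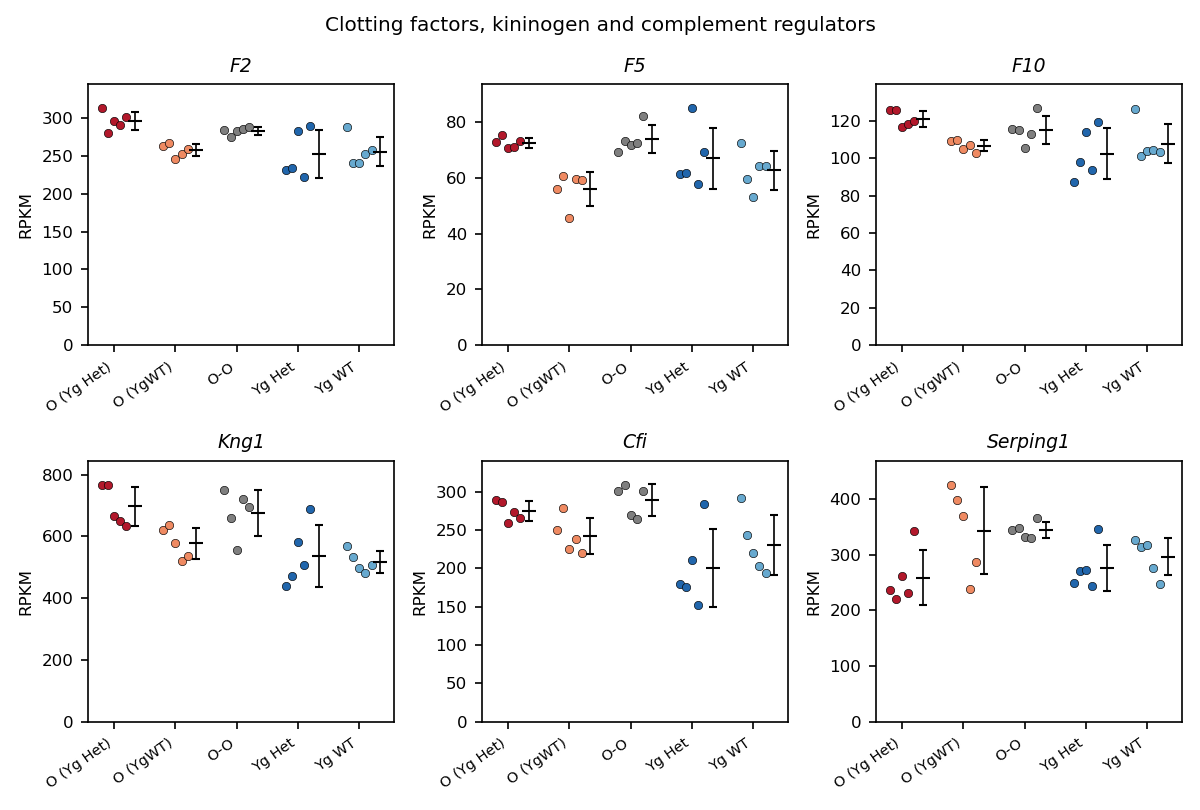
RPKM of 3 clotting factor genes, the kininogen gene and 2 complement regulator genes in each liver by group (points in replicate order), with the group mean and SD beside them (n = 5). F2, F5 and F10 in O (Yg Het) lie above every O (YgWT) liver, at 281 to 313, 70.7 to 75.2 and 116 to 126 RPKM.

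The direction of the calls depended on the scaling. After median-of-ratios scaling 9 of the 36 genes were higher in O (Yg Het) and 1 was lower, while 8.93% of all tested genes were higher and 9.53% were lower. The 9 were F2 (0.37 ± 0.08, adjusted p = 0.00415), F5 (0.54 ± 0.10, adjusted p = 0.0018), F7, F10, F12, F13b, Proc, Serpinc1 and Kng1, with log2 differences of 0.21 to 0.54, and all but Kng1, F12 and F13b belong to thrombin generation or its inhibition. The 1 was C9. None of the 36 genes that passed as deposited turned its sign after scaling. The fibrinogen chains differed by -0.34 (Fga), -0.35 (Fgb) and -0.45 (Fgg) as deposited and by -0.17 to -0.28 after scaling, and did not pass (limma adjusted p = 0.0513 for Fgg as deposited). Without O (YgWT) replicate 4 all 3 chains passed, with C4b, Hc and Pros1 (14 of 36 in all, Fgg at -0.57 and adjusted p = 0.015). Under that omission 36.9% of all tested genes passed, a share close to that of the 36.

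**Figure D4:**
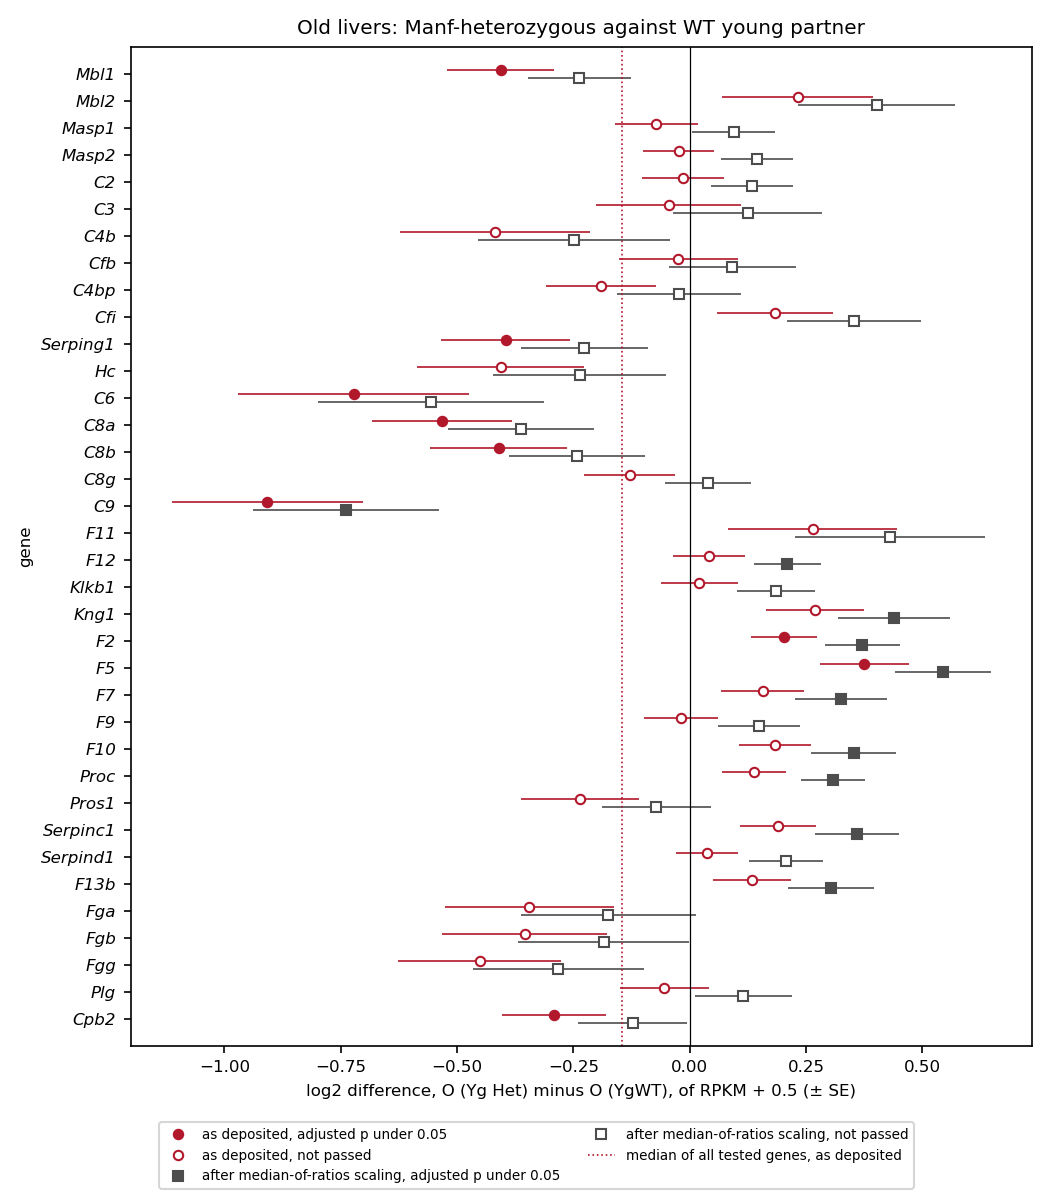
Log2 difference of O (Yg Het) minus O (YgWT) for the 36 genes, with its SE, as deposited (circles) and after median-of-ratios scaling (squares); filled symbols have a limma adjusted p under 0.05 and the dotted line is the median of all tested genes as deposited (-0.14). C9 lies farthest left at -0.91 and F5 farthest right at 0.38 as deposited, and the squares lie right of the circles throughout.

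Against O-O livers, O (Yg Het) livers had no gene of the 36 higher and 3 lower, where 23.6% of all tested genes passed (0.907% higher and 22.7% lower). The median log2 difference was -0.09 over the 36 genes. C9 averaged 106 ± 39.4 RPKM in O (Yg Het) and 174 ± 11.1 RPKM in O-O livers, where it lay between 159 and 189.7 RPKM. Its difference was -0.77 ± 0.21 (limma adjusted p = 0.0105), and it passed under every omission of 1 library. Pros1, the gene of the anticoagulant cofactor protein S, read 11.2, 12.1, 12.2, 9.87 and 14.2 RPKM in O (Yg Het), against 16.8, 14.4, 16.9, 18.3 and 14.7 RPKM in O-O livers, without overlap (12.2% of all tested genes were lower in that way). It differed by -0.43 ± 0.13 (limma adjusted p = 0.0177), and lost the call without O (Yg Het) replicate 4 (adjusted p = 0.0642) or O-O replicate 4 (adjusted p = 0.056). Serping1 differed by -0.43 ± 0.14 (limma adjusted p = 0.0297), and lost the call without O (Yg Het) replicate 1, 2 or 4 or O-O replicate 4 or 5 (adjusted p from 0.0514 to 0.0817). After scaling none of the 36 passed, against 3.53% of all tested genes higher and 6.44% lower (C9 -0.60, adjusted p = 0.0583, Pros1 -0.27, adjusted p = 0.149, and Serping1 -0.26, adjusted p = 0.243). This comparison and the one before share the O (Yg Het) livers.

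O (YgWT) livers differed from O-O livers in 2 of the 36 genes, and 1.17% of all tested genes passed (0.747% higher and 0.427% lower). Mbl1 was higher, with 200.4, 163, 210.1, 131 and 170.2 RPKM in O (YgWT) and 123, 152, 118, 107 and 125 RPKM in O-O livers (0.47 ± 0.11, limma adjusted p = 0.0416). F5 was lower, with 56.0, 60.6, 45.6, 59.4 and 59.0 RPKM in O (YgWT) and 69.4, 73.2, 71.9, 72.5 and 82.3 RPKM in O-O livers, without overlap (-0.40 ± 0.10, limma adjusted p = 0.0408). Both passed after scaling as well, when 1.13% of all tested genes were higher and 0.736% lower. Both lost their calls under 7 of 10 omissions, those of O (YgWT) replicates 1, 3 and 5 and O-O replicates 1, 3, 4 and 5, with limma adjusted p from 0.0517 to 0.134 for F5 and from 0.0623 to 0.136 for Mbl1. F2 and Serpinc1 were also lower without overlap, as were 1.6% of all tested genes, and did not pass (limma adjusted p = 0.346 for F2 and 0.317 for Serpinc1).

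Among the young partners, none of the 36 genes passed between Yg Het and Yg WT livers by limma, nor by limma voom on recovered reads. At that adjusted threshold 5.13% of all tested genes passed by limma (3.72% higher and 1.41% lower). An unadjusted limma p under 0.05 was held by 7 of the 36, a looser rule for which the share of all tested genes was not counted. The lowest p-values belonged to the fibrinogen chains and C4bp, the gene of the C4b-binding regulator. Fgg, the gamma chain gene, read 952, 973, 893, 954 and 1467 RPKM in Yg Het, against 1514, 1653, 1853, 1247 and 1111 RPKM in Yg WT livers. For each of the 3 chains Yg Het replicates 1 to 4 lay below every Yg WT liver and replicate 5 lay within the Yg WT range. The log2 differences were -0.49 ± 0.18 for Fgg (limma adjusted p = 0.0963), -0.49 ± 0.18 for Fga (adjusted p = 0.111) and -0.47 ± 0.18 for Fgb (adjusted p = 0.117). Without Yg Het replicate 5 the chains passed, with differences of -0.62 (Fgg, adjusted p = 0.028), -0.60 (Fga, adjusted p = 0.0427) and -0.59 (Fgb, adjusted p = 0.0393), together with Cfi and C4bp, and 8.96% of all tested genes passed. Without Yg WT replicate 5, Fgg (-0.59, adjusted p = 0.0472) and C4bp (-0.39, adjusted p = 0.0477) passed, with 7.8% of all tested genes.

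The fibrinogen chain genes lie side by side on chromosome 3 (mm10), Fgg at chr3:83007724-83015049, Fga at chr3:83026076-83033627 and Fgb, on the other strand, at chr3:83040141-83049863. Their ratios within a library moved less than their levels. Fga over Fgb averaged 1.22 ± 0.07, 1.22 ± 0.10, 1.20 ± 0.11, 1.25 ± 0.08 and 1.27 ± 0.05 (SD, n = 5 each) in O (Yg Het), O (YgWT), O-O, Yg Het and Yg WT livers, while Fgb alone ranged from 677 to 1587 RPKM. In single libraries Fga over Fgb ran from 0.999 (O-O replicate 3) to 1.33 (O (YgWT) replicate 4). Fgg over Fgb ran from 1.12 (O-O replicate 4) to 1.45 (O (YgWT) replicate 4). Its group means ran from 1.19 ± 0.07 in O-O to 1.32 ± 0.08 in O (YgWT) livers. O (YgWT) livers fell into high and low values for all 3 chains. Fgb read 1496, 1331 and 1587 RPKM in replicates 1 to 3 and 759 and 895 RPKM in replicates 4 and 5. F13b, the carrier subunit of the enzyme that cross-links fibrin, averaged 60.9 to 66.8 RPKM over the 5 groups and did not pass in any comparison as deposited.

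Age was examined first as O-O against Yg WT, where the mannose-binding lectins went in opposite directions. In all 3 genes were higher and 1 was lower in O-O, and 10.9% of all tested genes passed (9.11% higher and 1.74% lower). Mbl1 read 123, 152, 118, 107 and 125 RPKM in O-O, against 193, 169, 209.9, 171 and 155 RPKM in Yg WT livers (-0.52 ± 0.11, limma adjusted p = 0.00778). Mbl2 read 321, 358, 243, 313 and 281 RPKM in O-O, against 227, 199, 155, 174 and 211 RPKM in Yg WT livers (0.65 ± 0.16, limma adjusted p = 0.0153). Neither gene's groups overlapped (6.16% of all tested genes were higher and 1.29% lower in that way), and both calls held after scaling (adjusted p = 0.00401 for Mbl1 and 0.0445 for Mbl2), when 4.09% of all tested genes were higher and 4.14% lower. Mbl1 passed under every omission of 1 library, and Mbl2 under all but that of Yg WT replicate 3 (0.57, adjusted p = 0.0506). The ratio of Mbl2 to Mbl1 was 2.07 to 2.92 in O-O and 0.739 to 1.36 in Yg WT livers. It averaged 2.21 ± 0.47 in O (Yg Het), 1.45 ± 0.44 in O (YgWT) and 1.54 ± 0.34 in Yg Het livers.

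**Figure D5:**
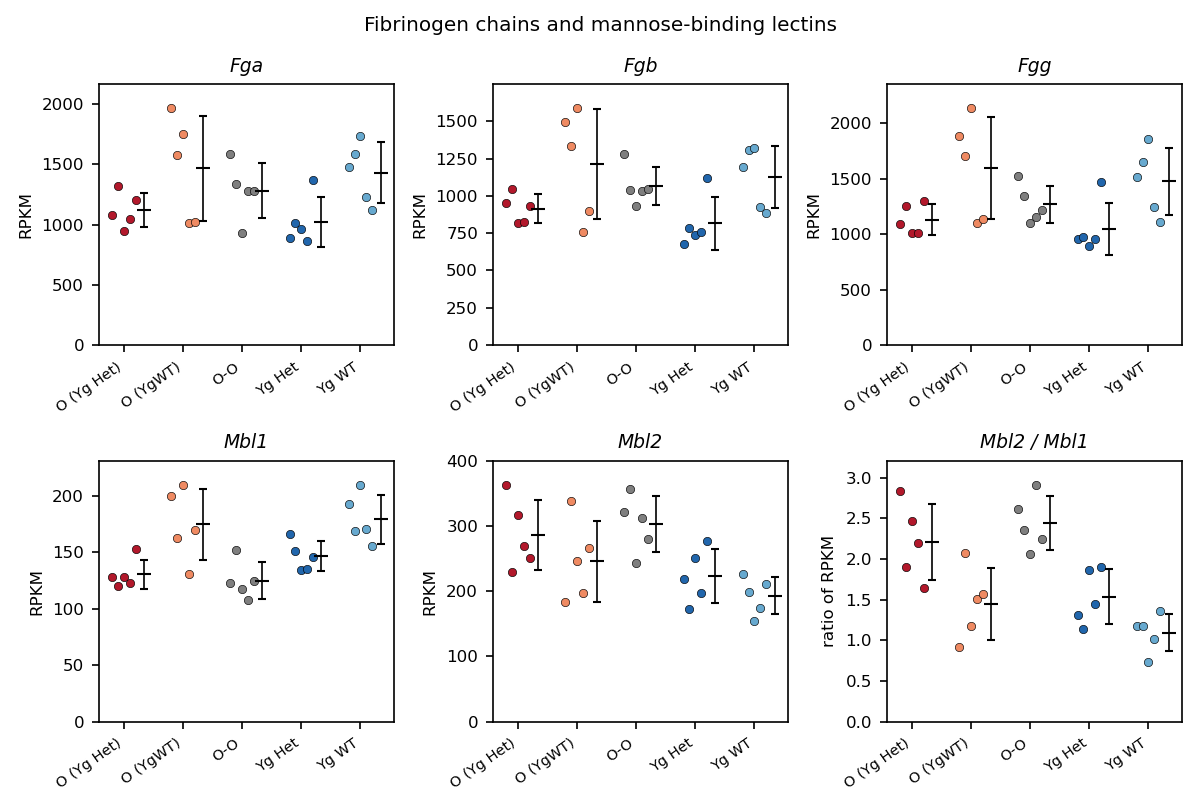
RPKM of the 3 fibrinogen chain genes and the 2 mannose-binding lectin genes, and the ratio of Mbl2 to Mbl1, in each liver by group (points in replicate order), with the group mean and SD beside them (n = 5). Every O-O ratio (2.07 to 2.92) lies above every Yg WT ratio (0.739 to 1.36), and in all 3 fibrinogen panels O (YgWT) replicates 1 to 3 lie above replicates 4 and 5 and Yg Het replicate 5 lies above the other 4.

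Kng1, the source of bradykinin, and F12, the contact factor, were also higher in O-O. Kng1 averaged 676 ± 75.4 RPKM in O-O and 518 ± 34.9 RPKM in Yg WT livers (0.38 ± 0.11, limma adjusted p = 0.0261). F12 averaged 205 ± 17.4 RPKM in O-O and 172 ± 12.6 RPKM in Yg WT livers (0.25 ± 0.08, limma adjusted p = 0.0388). Both lost the call after scaling (adjusted p = 0.128 for Kng1 and 0.159 for F12). Omission of O-O replicate 1, 4 or 5 or Yg WT replicate 3 or 4 ended that of Kng1 (adjusted p from 0.0543 to 0.0749), and omission of O-O replicate 3, 4 or 5 or Yg WT replicate 1, 2 or 3 that of F12 (adjusted p from 0.063 to 0.107). Masp1, Pros1 and Serping1 were higher in O-O without overlap and did not pass (limma adjusted p = 0.103, 0.0532 and 0.305 in that order). Masp1 encodes a protease bound to the lectins.

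When old livers were set against those of their own kind of young partner, none of the 36 genes passed between O (YgWT) and Yg WT livers by limma or limma voom. Of all tested genes 0.117% passed by limma at that adjusted threshold. Only 1 of the 36 had an unadjusted limma p under 0.05, a looser rule whose share of all tested genes was not counted. This 1 gene was F11, the gene of a contact factor, with 18.6, 26.2, 14.5, 27.1 and 18.1 RPKM in O (YgWT) and 29.3, 33.3, 35.7, 27.6 and 29.8 RPKM in Yg WT livers. The groups of F11 did not overlap (0.171% of all tested genes were lower in that way), and its difference was -0.60 ± 0.18 (limma adjusted p = 0.187).

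O (Yg Het) and Yg Het livers differed in 5 genes, 3 higher and 2 lower, where 5.55% of all tested genes passed (0.907% higher and 4.64% lower). Cfi, the gene of the protease that cleaves C3b and C4b, read 289.6, 286, 259, 273 and 266 RPKM in O (Yg Het), against 179.8, 175, 211, 152 and 284 RPKM in Yg Het livers (0.49 ± 0.13, limma adjusted p = 0.034). Kng1 (0.39 ± 0.11, limma adjusted p = 0.0399) and F2 (0.24 ± 0.07, limma adjusted p = 0.0475) were higher as well. C6 read 19.8, 24.5, 19.9, 30.2 and 53.6 RPKM in O (Yg Het), against 54.6, 55.5, 39.9, 47.8 and 73.6 RPKM in Yg Het livers (-0.94 ± 0.25, limma adjusted p = 0.0371). C9 averaged 106 ± 39.4 RPKM in O (Yg Het) and 175 ± 24.4 RPKM in Yg Het livers (-0.78 ± 0.21, limma adjusted p = 0.0371). All 5 calls ended when O (Yg Het) replicate 1, 2 or 4 or Yg Het replicate 1, 2 or 4 was left out, and all but Cfi without O (Yg Het) replicate 3 (limma adjusted p from 0.0585 to 0.138 over these omissions). After scaling Cfi, F2, F10 and Kng1 were higher (0.63, 0.38, 0.39 and 0.53) and none was lower, against 0.896% and 0.181% of all tested genes, with C6 at an adjusted p of 0.119 and C9 at 0.132. Without Yg Het replicate 5, 9 genes passed, with C3, F10, Serpinc1 and Serpind1 (the heparin cofactor gene) added on the higher side, and 16.1% of all tested genes passed.

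The difference between these old against young comparisons was itself tested, and none of the 36 genes passed by limma or limma voom. At that adjusted threshold 0.0107% of all tested genes passed by limma. An unadjusted limma p under 0.05, whose share of all tested genes was again not counted, was held by 6 of the 36. Among these 6 were C9 (-0.68 ± 0.29, limma adjusted p = 0.127), F11 (0.53 ± 0.26, adjusted p = 0.159) and Cfi (0.40 ± 0.18, adjusted p = 0.134). C9 passed without O (Yg Het) replicate 5 (-0.88, adjusted p = 0.0433) or O (YgWT) replicate 4 (-0.84, adjusted p = 0.0473), and Cfi without Yg Het replicate 5 (0.54, adjusted p = 0.0348). Under these 3 omissions 7.26%, 13.2% and 9.77% of all tested genes passed, in that order.

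No call was made as deposited for C2, C3, C4b, C4bp, Hc, C8g, Cfb, Masp1, Masp2, F7, F9, F10, F11, F13b, Fga, Fgb, Fgg, Plg, Proc, Serpinc1, Serpind1 and Klkb1. Group means of Masp2, the second lectin-bound protease gene, lay between 61.0 and 67.2 RPKM, those of C8g between 142 and 156 RPKM and those of Plg between 646 and 718 RPKM. C3 averaged 1256 ± 94.4, 1320.3 ± 304, 1347 ± 147, 984 ± 223 and 1098 ± 234 RPKM (SD, n = 5 each) in O (Yg Het), O (YgWT), O-O, Yg Het and Yg WT livers. Proc, the protein C gene, averaged 226 to 255 RPKM over the groups, F7 37.2 to 43.5 RPKM and F9, on chromosome X, 47.2 to 54.4 RPKM.

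Further genes of these pathways, outside the 36, were read from lists. Of 31 further complement genes 20 were tested, of which 11 were lower and none was higher in O (Yg Het) than in O (YgWT) livers (6 lower and 1 higher after scaling). Against O-O livers 11 were lower and none was higher (7 lower after scaling). Among them was the C1q chain gene C1qb, with -1.08 ± 0.28 against O (YgWT) (limma adjusted p = 0.00639) and -1.28 ± 0.28 against O-O (adjusted p = 0.00356). C1qb is expressed by macrophages and counts among the Kupffer cell markers, of which 9 of 12 were lower in O (Yg Het) in each comparison. C1qa, C1qc and Vsig4 also stand on both the complement and the Kupffer cell list. Colec10 (-0.87 ± 0.19, limma adjusted p = 0.00252) and Cd55 (-0.60 ± 0.16, adjusted p = 0.00722) were lower than in O (YgWT) livers. Colec11 was lower than in O-O livers (-0.95 ± 0.21, limma adjusted p = 0.00379). Colec10, Cd55 and Colec11 are not on the Kupffer cell list, and these calls held after scaling and under every omission of 1 library. Of 18 tested further coagulation genes 5 were lower and none was higher than in O (YgWT) livers (3 lower and 3 higher after scaling), and 3 were lower than in O-O livers (3 after scaling), where 29.6% and 22.7% of all tested genes were lower. Among them were F8, made by endothelium (-0.95 ± 0.18 against O (YgWT), limma adjusted p = 0.000911), and Tfpi, the tissue factor pathway inhibitor (-0.58 ± 0.14, adjusted p = 0.00351). F8 itself also counts among the sinusoidal endothelial markers. Against O (YgWT) livers 9 of 10 sinusoidal endothelial markers (6 after scaling) and 6 of 7 stellate cell markers (5 after scaling) were lower. Against O-O livers these were 8 of 10 (5 after scaling) and 6 of 7 (4 after scaling), while the 9 Kupffer cell markers were lower after scaling as well in both comparisons. Of 12 hepatocyte markers 3 (Alb, Ttr and Ahsg) were higher than in O (YgWT) livers (3 after scaling), and none passed against O-O livers (1 higher after scaling). Alb passed under all 10 omissions of 1 library against O (YgWT), and Ttr and Ahsg under 2 each. Of 3 tested neutrophil and monocyte markers 3 were lower in both comparisons (after scaling 3 against O (YgWT) and 1 against O-O livers), and of 2 B cell markers 2 were lower than in O-O livers. Platelet markers did not reach the tested level, and their summed level was 0.415 to 1.22 RPKM in O (Yg Het) but up to 19.1 RPKM in 1 O-O liver. The part of cell makeup in the values of the 36 genes was not tested.

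Acute phase reactants and hepatocyte signalling genes were set beside them. Of 15 acute phase genes 3 were lower in O (Yg Het) than in O (YgWT) livers, where 29.6% of all tested genes were lower, and the list's median log2 difference was -0.70. Saa3 (-1.05 ± 0.26, limma adjusted p = 0.00555) stayed past the threshold after scaling and under every omission of 1 library. Lcn2 (-2.15 ± 0.80, limma adjusted p = 0.0426) and Itih3 (-0.70 ± 0.26, adjusted p = 0.0431) passed under 3 of 10 omissions each and not after scaling (adjusted p = 0.0825 and 0.171 in that order). Saa3 was also lower than in O-O livers, the only 1 of the 15 there. Of 12 tested transcription and cytokine signalling genes 1 was higher and 4 were lower in O (Yg Het) than in O (YgWT) livers, and after scaling 3 were higher and 2 lower. The one higher as deposited was Nr1h4, the bile acid receptor gene (0.45 ± 0.13, limma adjusted p = 0.0119). Among the lower ones were Stat5b (-0.50, adjusted p = 0.00152), Il6st, the common chain of interleukin-6 receptors (-0.52, adjusted p = 0.00296), and Stat3 (-0.48, adjusted p = 0.036), of which Stat3 passed under 3 of 10 omissions of 1 library and not after scaling (adjusted p = 0.196). Against O-O livers Il6st and Stat5b were lower and neither passed after scaling (adjusted p = 0.0531 for Il6st and 0.376 for Stat5b). In Yg Het against Yg WT livers F3, the tissue factor gene, was higher (0.60 ± 0.13, limma adjusted p = 0.0117), as was Nr1h4 (0.46 ± 0.13, adjusted p = 0.0373), and Crp was lower (-0.39 ± 0.11, adjusted p = 0.0357), as was Serpinf2, the antiplasmin gene (-0.39 ± 0.11, adjusted p = 0.0454). F3 passed under every omission of 1 library, Nr1h4 under 4 of 10 and Crp and Serpinf2 under 2 of 10 each, and Nr1h4 did not pass after scaling (adjusted p = 0.0836). Between O-O and Yg WT livers Saa3 was higher (1.41 ± 0.26, limma adjusted p = 0.00324) and Crp lower (-0.38, adjusted p = 0.0294), and Colec11 (0.69, adjusted p = 0.0369), Kng2 (0.44, adjusted p = 0.00778) and Hrg (0.31, adjusted p = 0.0471) were higher. After scaling Colec11 (adjusted p = 0.0604) and Hrg (adjusted p = 0.188) did not pass. Under omissions of 1 library Hrg passed in 2 of 10, Colec11 in 5 and Crp in 6, and Saa3 and Kng2 in all 10. In that comparison 5 of 7 stellate cell markers and 2 of 2 B cell markers were higher too. No gene of the complement, coagulation, signalling or acute phase lists passed as deposited in the remaining comparisons, O (YgWT) against O-O, O (YgWT) against Yg WT and O (Yg Het) against Yg Het.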

How the data were processed

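Liver poly(A) RNA of 25 mice was sequenced with a stranded kit, per the labels' protocols. The submitters' processing notes name STAR 2.4.2a, HTSeq and mm10. The strand setting of the counting is not given in the sources used here. The authors deposited RPKM values (reads normalized to gene model length and library size) in 1 table of 60354 rows, of which 24107 had finite values and gene symbols not turned into dates. No other value column went unused (0). Whole reads were recovered from the RPKM steps for 17836 of 17838 genes, over all values of a gene (tolerance 0.02 reads). Values under 0.3 RPKM served only to estimate the relative depth of the libraries.

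Log2(RPKM + 0.5) was taken for the 9372 genes that reached 1 RPKM in 5 or more libraries, and it was fitted with limma 3.58.1 (R 4.3.3) as 5 group means with a mean-variance trend (20 residual degrees of freedom). All p-values are two-sided, and adjusted p-values (Benjamini-Hochberg) run over all tested genes with a threshold of 0.05. Adding 0.5 understates the changes of low genes. The 7 comparisons share groups, so their calls are not independent. Each group held 5 separate animals. Tests of recovery ran on simulated data. Alternatives were another added constant, no or a stricter filter, median-of-ratios scaling, library weights, a replicate block, only the groups compared, each library left out and, chosen after seeing the data, limma voom on recovered reads.

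The 36 genes and the other lists were chosen with earlier results of these data known. Named with a test are the genes that passed in a comparison and, of each other list, at most the 4 passing genes with the lowest p; genes named although they did not pass were chosen after their values were seen. Figures were drawn with matplotlib 3.10.9 (Python 3.11.15, numpy 2.4.6, pandas 2.3.3).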

Additional observations from a re-analysis of the deposited data

Results flagged for a closer look

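In 9 of 180 sets of 5 livers (1 gene in 1 group), or 5.0%, a single liver stood farther from the nearest other than 0.71 of the set's range. Chance marks about 1 in 20 sets that are independent and normally distributed. These sets share livers, and genes such as the fibrinogen chains moved together, so the number was not tested against chance. O (Yg Het) replicate 5 held 3 of the values, C4b at 242 RPKM (the other livers 139.5 to 153), C9 at 175 RPKM (78.7 to 97.0) and Mbl1 at 153 RPKM (121 to 129). Its albumin share of gene reads, 8.69%, was the lowest of its group. Yg Het replicate 5 held 2, Fgb at 1123 RPKM (677 to 782) and Fgg at 1467 RPKM (893 to 973), and its albumin share, 10.6%, was the highest of its group. Yg WT replicate 1 held C3 at 1509 RPKM (929 to 1036) and F10 at 126 RPKM (101 to 104). O-O replicate 3 held C3 at 1609 RPKM (1265 to 1299), and Yg WT replicate 5 held Klkb1 at 19.8 RPKM (16.1 to 16.9). The part of these livers in the calls is given by the omissions beside each result.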

How the results depend on the processing

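Counts of the 36 genes that passed moved as follows, each with the share of all tested genes passing in the same setting in parentheses, and with no called gene turning its sign under any alternative run. For O (Yg Het) against O (YgWT), 9 passed as reported, 17 with library weights (43.1% of all tested genes) and 4 to 14 with 1 library left out (20.9% to 37.2%). For O (Yg Het) against O-O, 3 passed, 0 after scaling (9.98%) and 1 to 4 with 1 library left out (13% to 29.8%). For O (YgWT) against O-O, 2 passed, 0 with no filter (0.269%), 0 with only the 2 groups compared (0.843%) and 0 to 2 with 1 library left out (0.129% to 2.47%). For Yg Het against Yg WT, 0 passed, 2 with library weights (12%) and 0 to 5 with 1 library left out (1.5% to 8.96%). For O-O against Yg WT, 4 passed, 2 after scaling (8.23%) and 1 to 6 with 1 library left out (4.3% to 14.2%). For O (Yg Het) against Yg Het, 5 passed, 0 with no filter (1.3%), 11 with library weights (21.1%), 0 with only the 2 groups compared (1.06%) and 0 to 9 with 1 library left out (0.192% to 16.1%). For the difference of the old against young comparisons, 0 passed, 3 with library weights (21.7%) and 0 to 1 with 1 library left out (0% to 13.2%). O (YgWT) against Yg WT gave 0 throughout. The cause of these shifts was not tested, except that fewer libraries and more genes tested are part of some alternatives.

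Whether equal replicate numbers mark joined livers is not known, and correlations of 5 livers per group cannot decide it. Same-numbered livers of O (Yg Het) and Yg Het correlated in their deviations from group means at -0.13 to 0.23, and those of O (YgWT) and Yg WT at 0.08 to 0.27, with 2 of 5 and 3 of 5 livers closest to their own number. Between groups that were not joined, the count was 0 of 5 for O (Yg Het) with O-O and 2 of 5 for O-O with Yg WT. With the replicate block 8 of the 36 genes passed for O (Yg Het) against O (YgWT), where 31.5% of all tested genes passed. For O (YgWT) against O-O 1 passed (0.832% of all tested genes), and for O (Yg Het) against Yg Het 1 passed (2.01%). In the latter Cfi kept its call (limma adjusted p = 0.0484) and C6, C9, F2 and Kng1 lost theirs (adjusted p from 0.0546 to 0.0633). The other comparisons kept their counts. Depth limits Cfb, at 42 to 115 reads per library, more than any other of the 36 genes.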
